A study of Mus musculus with 6 samples.

Results

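Calcr, Cxcr4, Vcam1, Itga7, Itgb1, Cd34, Sdc4, Sdc3, Cdh15 and Cd82 encode receptors and adhesion molecules of the satellite cell surface, several of which are used to define or sort these cells. They were taken by gene symbol as 10 of the 24980 symbols listed, and 10 of 10 were found. The RNA came from satellite cells, the stem cells of skeletal muscle, sorted by flow cytometry out of adult C57BL6/J hindlimbs. There were 3 KO libraries, of the genotype scERα KO with satellite cell estrogen receptor α (gene Esr1) as the target, and 3 WT libraries, of the genotype scERα WT. A total of 10 mg of tamoxifen, which induces Cre, was given to KO and WT mice alike. The sources used here do not give the driver of Cre, the sex of the mice, the antibodies of the sort or whether a library holds 1 mouse or several, so a p-value speaks of variation among libraries that could be technical.

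A satellite cell lies between the fibre membrane and the basement membrane. On the fibre side it is held by cadherin contacts, and on the other side by integrins and dystroglycan that bind laminin. Integrin α7β1 is the main laminin-binding integrin of muscle. Syndecans carry heparan sulfate chains that present growth factors to their receptors. The calcitonin receptor is a mark of quiescent satellite cells and responds to type V collagen made by the cells themselves, as shown in mice, and CXCR4 is the receptor of the chemokine CXCL12.

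The values were TPM, a length-scaled relative abundance within each library, so levels of different genes can be set side by side. The listed TPM summed to between 295306 and 321771 in KO libraries and between 317924 and 334382 in WT libraries. TPM keeps no sequencing depth, so the precision of single values is unknown. Esr1 was at 2.92, 3.69 and 3.87 TPM in KO libraries, against 6.94 to 7.53 TPM in WT libraries, with no overlap (log2 difference -0.86, SE 0.13; limma with Benjamini-Hochberg adjusted p = 0.0925). All genes with a TPM of 1 or more in at least 3 libraries were tested, which left 8971 genes and kept 10 of the 10 surface genes. The median log2 difference, KO minus WT, of all genes tested was 0.12 on log2(TPM + 1), and dividing each library by its median of ratios to the other libraries brought it to 0.0088. A higher value in KO was found for 77.6% of all genes tested as deposited and for 52.3% after that scaling, so each difference stands here beside the median of all genes.

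No surface gene passed the adjusted threshold of 0.05 by limma (Benjamini-Hochberg, over the 8971 genes). The background was low as well, with 5 of 8971 genes passing, or 0.0557% (0.0334% higher and 0.0223% lower). At an unadjusted p under 0.05, 4 of the 10 surface genes (Cd82, Sdc3, Vcam1 and Itgb1) were higher in KO and 0 lower, beside 7.89% of all genes higher and 2.66% lower. After median-of-ratios scaling 2 (Vcam1 and Cd82) were higher and 1 (Sdc4) lower at that p, beside 3.96% and 4.85% of all genes. Of the 10, 8 had a higher and 2 a lower value in KO, beside 77.6% of all genes higher. After median-of-ratios scaling 6 of the 10 were higher, beside 52.3% of all genes. The median log2 difference of the 10 was 0.29, against 0.12 for all genes tested, and 0.14 against 0.0088 after that scaling.

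In Cd82, Vcam1, Sdc3, Itgb1, Cdh15 and Cd34 all 3 KO values lay above all 3 WT values. These are 6 of 10 genes, where 13.5% of all genes tested had KO above WT and 3.07% had KO below WT without overlap. The count of surface genes was also 6 with protein-coding genes rescaled, beside 26.7% of all genes. It was 6 as well without WT library 2 or KO library 1, beside 36.8% and 29.4%. Without KO library 2 it was 7, beside 16.8%, and with quantiles equalised between libraries 4, beside 6.18%. After median-of-ratios scaling the KO values lay above in Vcam1, Sdc3 and Cd82 (background 6.58%) and below in Cxcr4 and Sdc4 (background 7.44%). In bulk samples, fewer cells that express a gene and less of its RNA per cell cannot be told apart.

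**Figure D1:**
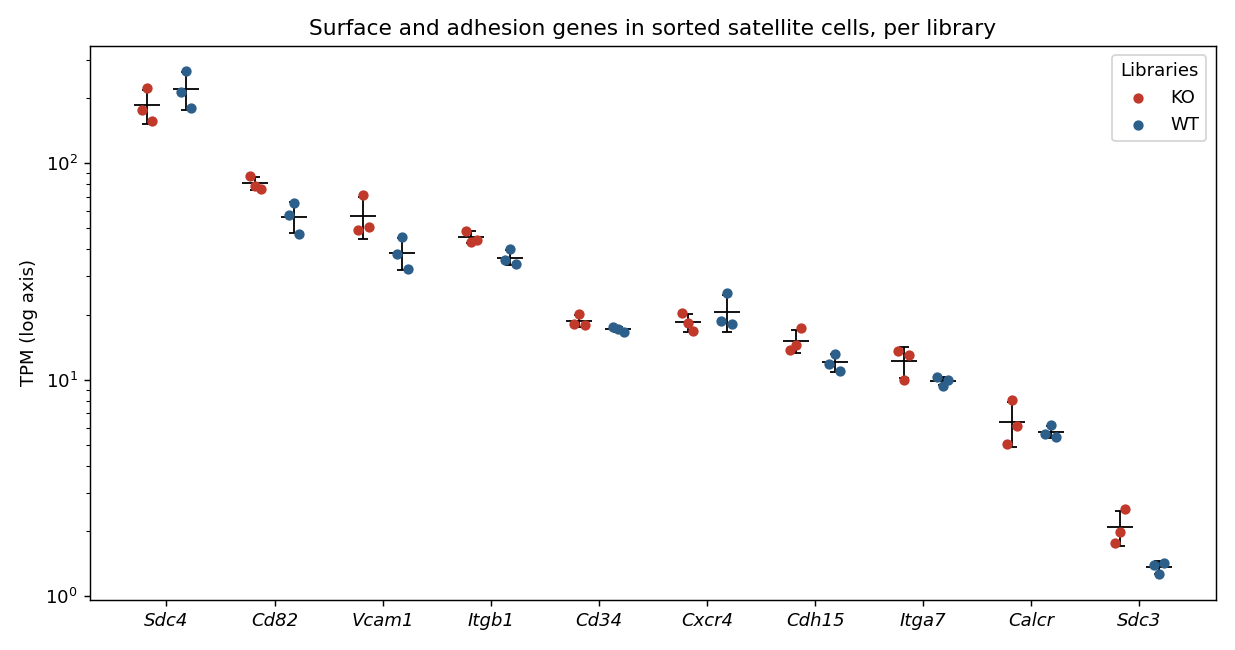
TPM of the 10 surface genes in each library on a log axis, KO left of WT, genes in the order of their KO mean; points are libraries, and the horizontal mark and bar are the mean and SD of 3 libraries. Sdc4 was the highest and Sdc3 the lowest of the 10 in both groups, and Cd82 and Vcam1 are separated between KO and WT.

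The levels ran over about the same range and in nearly the same order in both groups. In KO libraries the order of the means was Sdc4, Cd82, Vcam1, Itgb1, Cd34, Cxcr4, Cdh15, Itga7, Calcr and Sdc3. The libraries of neighbouring genes overlapped for Cd34 with Cxcr4 and for Cxcr4 with Cdh15 in KO, and in WT for Vcam1 with Itgb1. Cxcr4 stood above Cd34 in WT and below it in KO, although in KO the pair overlapped. The 10 genes summed to 433, 488 and 401 TPM in KO libraries, against 410, 490 and 356 TPM in WT libraries, so their joint level did not separate the groups, and Sdc4 made up the largest part of it.

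Calcr encodes the calcitonin receptor, a G protein-coupled receptor that helps keep satellite cells quiescent in mice. Calcr lies on chromosome 6 at 3685680 to 3764714 (GRCm38, minus strand). Calcr held 5.03, 8.03 and 6.12 TPM in KO libraries, against 5.64, 6.16 and 5.41 TPM in WT libraries. The KO libraries spanned the WT libraries, with KO library 1 the lowest and KO library 2 the highest of all 6. The difference on the log2 scale was 0.12 (SE 0.17), the same as the median of all genes to 2 decimals (limma adjusted p = 0.797), with a 95% interval of -0.26 to 0.49. It turned to -0.015 after median-of-ratios scaling and to -0.038 without KO library 2.

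The introns of Calcr hold 2 microRNA hairpins on the same strand, Mir489 and Mir653, and miR-489 is known for keeping mouse satellite cells quiescent. Their mature sequences are shown with the seed, bases 2 to 8, in capitals (RefSeq, GRCm38.p6), because their hairpins lie inside the receptor gene.
mmu-miR-489-3p: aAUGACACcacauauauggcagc
mmu-miR-489-5p: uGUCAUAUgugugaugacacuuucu
mmu-miR-653-5p: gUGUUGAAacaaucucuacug
mmu-miR-653-3p: uUCACUGGaguuuguuucagu
Mir489 was listed at 0 in all 6 libraries. Mir653 was listed at 1.77 and 2.32 TPM in KO libraries 1 and 2, at 0 in KO library 3 and at 0 in the WT libraries. The sources used here give no step that selects small RNAs, so these values describe reads assigned to the hairpins and not the mature microRNAs.

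The known partners of the receptor were measured too. Of the receptor activity-modifying proteins, which change the ligand that calcitonin-type receptors bind, Ramp1 and Ramp3 were at 0.09 TPM or less in every library. Ramp2 held 4.12, 8.72 and 7.31 TPM in KO libraries, against 4.82, 4.75 and 5.22 TPM in WT libraries, with KO library 1 below all others. The related receptor gene Calcrl held 3.61, 4.79 and 4.12 TPM in KO libraries and 4.32, 5.96 and 3.63 TPM in WT libraries. Adm, the gene of adrenomedullin, held 3.23, 3.07 and 2.93 TPM in KO libraries, against 2.02, 3.06 and 1.49 TPM in WT libraries, and the groups overlapped. Ramp2 and Calcrl together form the adrenomedullin receptor, which endothelial cells also carry. The ratio of Calcr to Ramp2 was 0.993 ± 0.202 in KO libraries and 1.17 ± 0.130 in WT libraries (SD, n = 3 each; exact permutation p = 0.3, and 0.42 with Benjamini-Hochberg adjustment over the 7 ratios computed).

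Collagen V chains, the ligand of the calcitonin receptor in the niche, varied between the libraries of a group. Col5a1 held 12.86, 14.09 and 16.99 TPM in KO libraries, against 11, 8.18 and 13.05 TPM in WT libraries. Col5a2 held 17.1, 14.5 and 18.8 TPM in KO libraries, against 10.9, 11.3 and 16.7 TPM in WT libraries. The groups overlapped in both genes because WT library 3 was high, and it also had the highest Col5a3, at 22.6 TPM against 5.51 and 9.61 TPM in the other WT libraries. Calca, which encodes calcitonin, did not exceed 0.81 TPM.

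Cxcr4 encodes the receptor of CXCL12, through which myogenic cells migrate and are retained. The gene is on chromosome 1 at 128588199 to 128592293 (GRCm38, minus strand). Cxcr4 held 20.2, 18.2 and 16.7 TPM in KO libraries, against 18.6, 25.2 and 18.1 TPM in WT libraries. WT library 2 stood above the other libraries, which overlapped. The log2 difference was -0.15 (SE 0.16; limma adjusted p = 0.749), and it was 0.00090 without WT library 2. After median-of-ratios scaling it was -0.29 and the KO values lay below the WT values.

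Cxcl12, the ligand, was low, at 2.55, 3.66 and 2.94 TPM in KO libraries and 1.89, 5.62 and 2.12 TPM in WT libraries, and WT library 2 was again the highest. Ackr3, a scavenging receptor for the same chemokine, was the more abundant receptor gene, at 31.0, 35.3 and 26.2 TPM in KO libraries and 31.8, 38.0 and 32.6 TPM in WT libraries. The ratio of Cxcr4 to Ackr3 was 0.603 ± 0.0758 in KO libraries and 0.601 ± 0.0561 in WT libraries (SD, n = 3 each; exact permutation p = 1). A ratio within a library does not depend on how that library was scaled.

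The laminin receptor is a pair of chains, integrin α7 of Itga7 and integrin β1 of Itgb1. Itgb1 lies on chromosome 8 at 128685654 to 128733200 (plus strand) and Itga7 on chromosome 10 at 128933818 to 128958282 (plus strand, GRCm38). Itgb1 held 48.9, 43.4 and 44.3 TPM in KO libraries, against 35.6, 40.0 and 34.4 TPM in WT libraries, with no overlap. Its log2 difference was 0.31 (SE 0.13; limma adjusted p = 0.469), and 0.16 after median-of-ratios scaling, where the groups overlapped. Itga7 held 13.55, 9.92 and 12.96 TPM in KO libraries, against 10.3, 9.36 and 9.98 TPM in WT libraries. KO library 2 lay inside the WT range and the other KO libraries above it. The log2 difference of Itga7 was 0.26 (SE 0.15; limma adjusted p = 0.572), and 0.13 after median-of-ratios scaling.

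The ratio of the chains did not differ detectably between the groups. Itga7 stood at 0.277, 0.228 and 0.293 of Itgb1 in KO libraries, and at 0.288, 0.234 and 0.290 of Itgb1 in WT libraries (exact permutation p = 0.7, adjusted 0.817). Among 17 further α chain genes Itga5, Itga8 and Itgav passed the filter. In KO 2 had a higher and 1 a lower value, beside 77.6% of all genes higher. After median-of-ratios scaling 1 was higher, beside 52.3%. None passed the adjusted threshold (limma; 0 at an unadjusted p under 0.05 as deposited). Itgav, which encodes the αv chain of vitronectin and fibronectin receptors, held 4.36, 5.97 and 4.81 TPM in KO libraries, against 7.12, 5.56 and 6.19 TPM in WT libraries, and the groups overlapped. Itga8, a chain of an α8β1 receptor for nephronectin, held 1.78, 2.67 and 2.09 TPM in KO libraries and 1.71, 1.51 and 1.71 TPM in WT libraries. Itga5, the fibronectin receptor chain, differed by 0.03 on the log2 scale. Of 7 other β chains Itgb5 alone passed, at 2.33 ± 0.391 TPM in KO libraries and 2.67 ± 0.52 TPM in WT libraries (SD, n = 3 each).

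The laminin chains that α7β1 binds had higher values in KO. Lamc1, the γ1 chain of most laminins, held 30.3, 29.3 and 36.6 TPM in KO libraries, against 22.1, 16.6 and 22.6 TPM in WT libraries. Lama2, the α2 chain of the muscle laminin, held 23.8, 24.4 and 21.0 TPM in KO libraries, against 18.5, 19.65 and 17.98 TPM in WT libraries. In both genes the KO libraries lay above the WT libraries as deposited, as in 13.5% of all genes tested. After median-of-ratios scaling Lamc1 kept this at 0.48 on the log2 scale, while Lama2 overlapped at 0.14. Lamb1 held 3.35, 2.58 and 3.05 TPM in KO libraries, against 1.82, 1.54 and 1.46 TPM in WT libraries, the smallest adjusted p of these chains (limma adjusted p = 0.153). Lamb2, the β2 chain, did not overlap as deposited, with a log2 difference of 0.22, but overlapped at 0.088 after median-of-ratios scaling, while Nid1, the gene of nidogen-1, overlapped at 0.36. Fn1, the gene of fibronectin, which syndecan-4 binds, held 3.60, 6.36 and 4.95 TPM in KO libraries, against 2.78, 2.41 and 2.59 TPM in WT libraries.

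**Figure D2:**
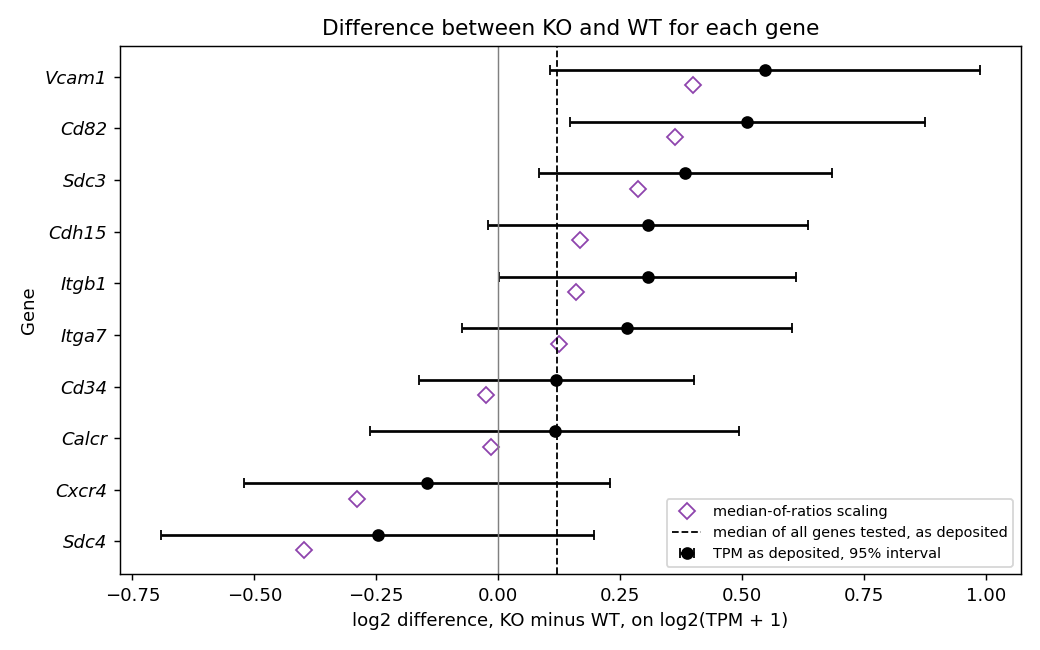
Log2 difference, KO minus WT, on log2(TPM + 1) for each of the 10 surface genes; filled points with bars are the values as deposited with 95% intervals, diamonds the values after median-of-ratios scaling, and the dashed line is the median of all genes tested, 0.12. The intervals of Vcam1, Cd82, Sdc3 and Itgb1 lie above 0 as deposited, and every diamond lies to the left of its point.

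The genes that link integrins to the cytoskeleton gave small differences. Of 20 listed genes 14 were tested, 11 with a higher and 3 with a lower value in KO. Of all genes tested 77.6% had a higher value. After median-of-ratios scaling 7 of the 14 were higher, beside 52.3% of all genes. The median log2 difference of the 14 was 0.14, and 0.012 after that scaling. No gene passed the adjusted threshold (limma), 2 were higher at an unadjusted p under 0.05 and 0 lower, beside 7.89% and 2.66% of all genes. After median-of-ratios scaling 0 were higher and 1 lower at that p, beside 3.96% and 4.85%. Lims1, which encodes an adaptor of integrin-linked kinase, held 5.71, 5.69 and 5.56 TPM in KO libraries, against 4.29, 4.51 and 4.33 TPM in WT libraries. Ptk2, the gene of focal adhesion kinase, held 3.18, 3.72 and 2.83 TPM in KO libraries, against 2.43, 2.55 and 2.37 TPM in WT libraries. In both genes the KO values lay above the WT values, as in 5 of the 14 (background 13.5%). Fermt2, the gene of kindlin-2, and Tln1, that of talin-1, differed by 0.28 and 0.23 on the log2 scale. Tln2 alone had KO below WT without overlap (background 3.07%). It held 13.8, 13.9 and 14.2 TPM in KO libraries, against 17.2, 17.3 and 14.3 TPM in WT libraries. Tln2 was also the 1 gene that was lower at an unadjusted p under 0.05 (limma) after median-of-ratios scaling.

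Itgb1 is shown with its promoter window because the β1 chain pairs with many α chains and the gene is one of the genes without overlap between the groups. The window of 300 bases spans the RefSeq gene start (GRCm38.p6, chr8:128685404-128685703, plus strand). Capitals mark E-boxes (CANNTG, the core bound by myogenic basic helix-loop-helix factors) and estrogen response half-sites (GGTCA), on either strand; this window holds none of them.
Itgb1 promoter: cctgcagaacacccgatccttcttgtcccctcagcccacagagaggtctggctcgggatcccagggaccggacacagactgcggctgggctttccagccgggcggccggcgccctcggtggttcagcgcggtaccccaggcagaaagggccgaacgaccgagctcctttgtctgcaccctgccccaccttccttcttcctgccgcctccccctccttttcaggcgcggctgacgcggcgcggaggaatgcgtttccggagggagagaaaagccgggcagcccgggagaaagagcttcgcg
Windows were found for 8 of the 10 surface genes; Vcam1 and Itga7 are named only. An E-box was in 3 of the 8, beside 72.3% of all 32851 windows, a GGTCA half-site in 2 of the 8, beside 40.5%, and the full palindrome GGTCANNNTGACC in 0 of the 8, beside 0.07% of all windows. These are matches of letters in 1 short window per gene and say nothing of binding.

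Vcam1 encodes a cell adhesion molecule that binds integrin α4β1 and is widely used in antibody panels for mouse satellite cells. Its locus is on chromosome 3 at 116109949 to 116129688 (GRCm38, minus strand). Vcam1 held 49.3, 71.4 and 50.9 TPM in KO libraries, against 37.9, 45.5 and 32.5 TPM in WT libraries. Every KO library lay above every WT library, and KO library 2 stood apart at the top. The mean was 57.2 ± 12.3 TPM in KO and 38.6 ± 6.54 TPM in WT (SD, n = 3 each), a ratio of 1.48, and the log2 difference was 0.55 (SE 0.19), the largest of the 10, with an adjusted p = 0.352 by limma. It was 0.40 after median-of-ratios scaling and between 0.38 and 0.67 with 1 library left out. By exact permutation, two-sided, p was 0.1, and no split of 3 against 3 can go lower. Vcam1 stood at 0.281, 0.322 and 0.325 of Sdc4 in KO libraries, against 0.177, 0.171 and 0.181 of Sdc4 in WT libraries (exact permutation p = 0.1, adjusted 0.175), a ratio picked after its values had been seen.

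Of the chains of VCAM1's integrin receptors, Itgb1 was abundant (its values are given above), while Itga4 and Itgb7 were low. Itga4 was at 0.99 TPM or less in every KO library and at 1.28 TPM or less in every WT library, and Itgb7 at 0.35 TPM or less in all 6. Vcam1 overlaps the antisense gene Gm43109, and the sources used here do not say whether strand was used, so reads of both genes may not be separated. The same holds for Itga7 with Mettl7b on the opposite strand and for Cdh15 with Gm20388 on its own strand.

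Cdh15 encodes M-cadherin, which joins the satellite cell to its fibre and is used as a marker of these cells. Cdh15 lies on chromosome 8 at 122847966 to 122867397 (GRCm38, plus strand). Its promoter window is shown because it holds the most E-boxes of the 8 windows (GRCm38.p6, chr8:122848124-122848423, plus strand). Capitals are as above, and all of them mark E-boxes. This window lies wholly inside the gene coordinates just given, downstream of their start.
Cdh15 promoter: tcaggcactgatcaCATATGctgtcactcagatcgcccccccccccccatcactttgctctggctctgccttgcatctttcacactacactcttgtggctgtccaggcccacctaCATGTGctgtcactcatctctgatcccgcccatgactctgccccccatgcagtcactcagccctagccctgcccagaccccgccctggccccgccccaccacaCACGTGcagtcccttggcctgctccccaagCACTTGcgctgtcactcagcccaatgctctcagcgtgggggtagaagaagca
Cdh15 held 13.7, 14.4 and 17.3 TPM in KO libraries, against 11.9, 13.2 and 10.96 TPM in WT libraries. The KO libraries lay just above the WT libraries, the lowest of KO close to the highest of WT. Its log2 difference was 0.31 (SE 0.14; limma adjusted p = 0.493), and 0.17 after median-of-ratios scaling, where the groups overlapped.

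Among 12 further cadherins and catenins 8 were tested. In KO 5 had a higher and 3 a lower value, beside 77.6% of all genes higher. After median-of-ratios scaling 4 of the 8 were higher, beside 52.3%. Their median was 0.11, or -0.028 after that scaling, and none passed the adjusted threshold (limma). At an unadjusted p under 0.05, 0 were higher and 1 lower as deposited, beside 7.89% and 2.66% of all genes. These counts were the same after that scaling, beside 3.96% and 4.85%. The member with the smallest p was Cdh4, the gene of R-cadherin, at 0.64, 1.09 and 0.46 TPM in KO libraries, against 0.85, 1.89 and 1.82 TPM in WT libraries. Cdh2, the gene of N-cadherin, which shares the fibre contact with M-cadherin in mice, held 1.41, 1.31 and 1.65 TPM in KO libraries and 1.23, 1.59 and 1.85 TPM in WT libraries. Cdh15 stood at 10.4 ± 0.650 times Cdh2 in KO libraries and at 7.96 ± 1.88 times Cdh2 in WT libraries (SD, n = 3 each; exact permutation p = 0.1, adjusted 0.175). Cdh1, the epithelial cadherin gene, was at 2.66 TPM in KO library 2 and at 0.28 TPM or less in the other libraries. Cdh5, the endothelial cadherin gene, held 1.35, 4.34 and 3 TPM in KO libraries, against 1.46, 2 and 1.80 TPM in WT libraries, and the groups overlapped. The catenins Ctnna1 and Ctnnb1, which couple cadherins to actin, differed by 0.27 and 0.23 on the log2 scale.

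**Figure D3:**
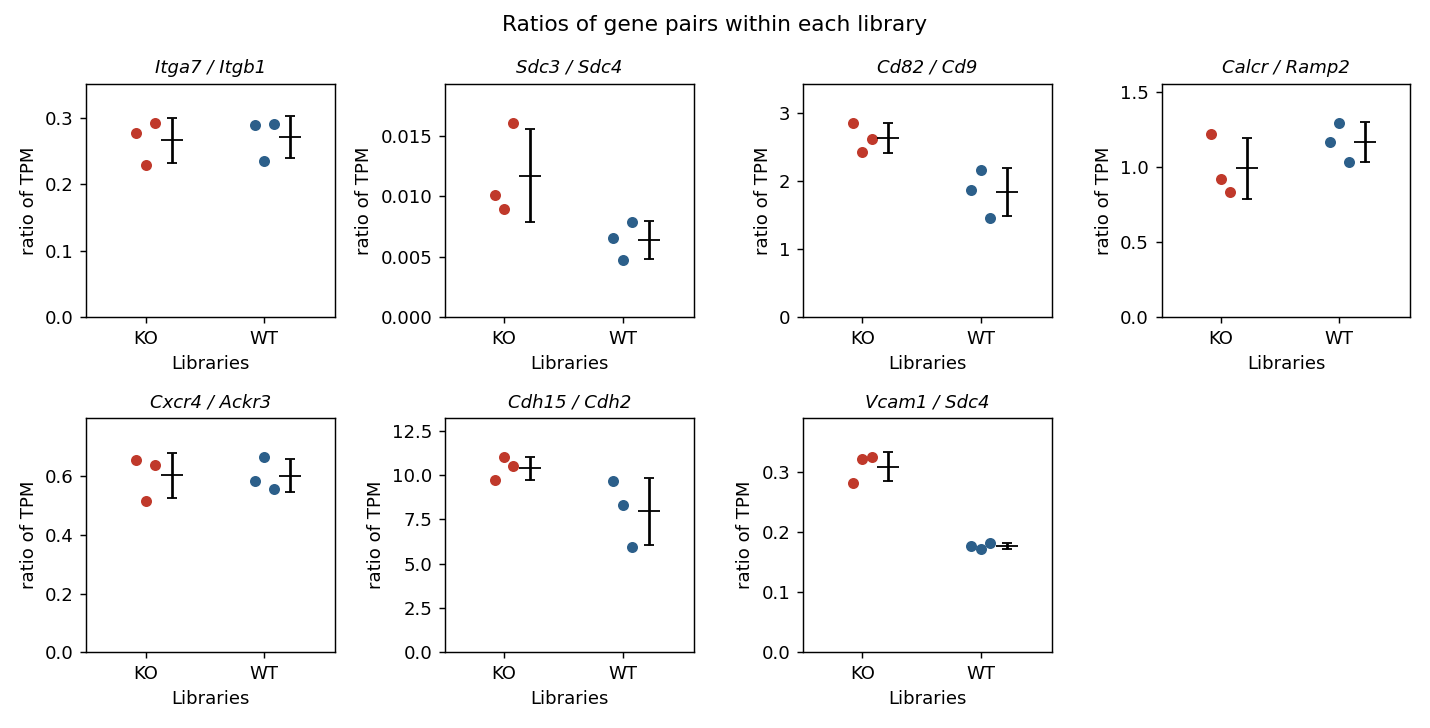
Ratio of TPM of 7 pairs of genes within each library; points are libraries, and the mark and bar beside them the mean and SD of 3 libraries, KO left of WT. Itga7 over Itgb1 and Cxcr4 over Ackr3 overlap between the groups, while for Cd82 over Cd9, Sdc3 over Sdc4, Cdh15 over Cdh2 and Vcam1 over Sdc4 the KO points all sit above the WT points. All 7 pairs were chosen after the values were seen.

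The 2 syndecans lay at the ends of the range. Sdc4 encodes syndecan-4, a co-receptor for fibroblast growth factors and fibronectin that marks quiescent and activated satellite cells, on chromosome 2 at 164424247 to 164443887 (GRCm38, minus strand). Sdc4 held 175, 222 and 157 TPM in KO libraries, against 214, 266 and 179 TPM in WT libraries. The groups overlapped, and library 2 of each group was the highest of its group. On the log2 scale the difference was -0.25 (SE 0.19; limma adjusted p = 0.667). After median-of-ratios scaling it was -0.40, and the KO values then lay below the WT values. With quantiles equalised between libraries instead, the difference of Sdc4 was -0.017.

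The Sdc4 promoter window is shown as that of the most abundant of the 10 genes and one of the 2 with a lower value (GRCm38.p6, chr2:164443139-164443438, minus strand). The capitals mark 1 GGTCA half-site. This window lies wholly inside the gene coordinates given above, downstream of their start.
Sdc4 promoter: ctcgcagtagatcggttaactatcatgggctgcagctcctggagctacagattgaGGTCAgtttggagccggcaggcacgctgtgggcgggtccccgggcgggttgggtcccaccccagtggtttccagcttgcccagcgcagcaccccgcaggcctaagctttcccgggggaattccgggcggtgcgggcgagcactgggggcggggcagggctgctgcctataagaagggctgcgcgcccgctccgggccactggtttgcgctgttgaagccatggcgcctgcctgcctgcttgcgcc

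Sdc3 encodes syndecan-3, which takes part in Notch signalling and in the return of satellite cells to quiescence in mice. The gene lies on chromosome 4 at 130792537 to 130826319 (GRCm38, plus strand). Sdc3 held 1.77, 1.99 and 2.52 TPM in KO libraries, against 1.40, 1.26 and 1.42 TPM in WT libraries, with no overlap. Its ratio of means was 1.54, the largest of the 10. The log2 difference was 0.38 (SE 0.13; limma adjusted p = 0.339), and it was 0.29 after median-of-ratios scaling, where the groups still did not overlap. Sdc3 overlaps the antisense genes Gm12970 and Gm26716, so part of its reads may belong to them.

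The ratio of Sdc3 to Sdc4 was 0.0101, 0.00897 and 0.0161 in KO libraries, against 0.00654, 0.00473 and 0.00791 in WT libraries. All KO ratios lay above all WT ratios, at the lowest p the design allows (exact permutation p = 0.1, adjusted 0.175). This pair was chosen after its values had been seen, and its 2 genes differed in opposite directions, so the p-value adds no separate support. Notch1, a receptor with which syndecan-3 interacts in mouse satellite cells, held 11.3, 9.62 and 9.97 TPM in KO libraries, against 6.34, 8.75 and 5.99 TPM in WT libraries (limma adjusted p = 0.294). The growth factor receptors that syndecans assist lay close together in the groups: Fgfr1 at 57.3 ± 6.0 TPM in KO and 55.8 ± 9.51 TPM in WT, and Fgfr4 at 37.1 ± 3.02 TPM in KO and 34.3 ± 3.04 TPM in WT (SD, n = 3 each). Of 8 tested co-receptors and decoys, 5 were on the higher and 3 on the lower side in KO, beside 77.6% of all genes higher. After median-of-ratios scaling 3 of the 8 were higher, beside 52.3%. Their median was 0.078, or -0.069 after that scaling, with none past the adjusted threshold (limma). At an unadjusted p under 0.05, 1 was higher and 1 lower as deposited, beside 7.89% and 2.66% of all genes. After that scaling 1 was higher and 2 lower at that p, beside 3.96% and 4.85%. The gene lower at that p as deposited was Adgre5, whose product binds the complement regulator CD55. It held 3.82, 4.14 and 4.88 TPM in KO libraries, against 5.18, 5.82 and 7.43 TPM in WT libraries. Met, the receptor of hepatocyte growth factor, differed by 0.17 on the log2 scale.

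Midkine, a heparin-binding growth factor that binds syndecans, was the ligand with the smallest p. Its gene Mdk held 5.68, 4.43 and 5.93 TPM in KO libraries, against 2.94, 2.45 and 3.23 TPM in WT libraries, a log2 difference of 0.71 (SE 0.15; limma adjusted p = 0.153). Of the 23 listed ligands and partners 12 were tested, and 12 of 12 had a higher value in KO, as had 77.6% of all genes, between 0.042 and 0.71 on the log2 scale, with a median of 0.37, or 10 of 12 (beside 52.3%) and a median of 0.26 after median-of-ratios scaling. By limma 0 passed the adjusted threshold, and 5 were higher at an unadjusted p under 0.05, beside 7.89% of all genes, or 3 after that scaling, beside 3.96%.

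The other heparan sulfate proteoglycan genes mostly had higher values in KO as well, as had 77.6% of all genes tested. Of 12 listed syndecan, glypican and related genes 8 were tested and 8 had a higher value, with a median of 0.29 and 7 without overlap (background 13.5%). After median-of-ratios scaling 7 of the 8 were higher, beside 52.3% of all genes. The median was then 0.16, with 3 genes without overlap (background 6.58%). By limma 0 passed the adjusted threshold and 3 were higher at an unadjusted p under 0.05, beside 7.89% of all genes, or 1 after that scaling, beside 3.96%. Gpc1, the gene of glypican-1, held 7.65, 5.54 and 8.70 TPM in KO libraries, against 5.20, 4.64 and 3.74 TPM in WT libraries. Gpc4 held 6.50, 6.09 and 7.34 TPM in KO libraries, against 4.77, 5.26 and 4.27 TPM in WT libraries. Gpc6 and Sdc2 had log2 differences of 0.37 and 0.26.

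Cd34 encodes a sialomucin found on quiescent satellite cells and also on endothelial cells and on fibro-adipogenic progenitors. Its position is chromosome 1 at 194938819 to 194961279 (GRCm38, plus strand). Cd34 held 18.03, 20.1 and 17.9 TPM in KO libraries, against 17.4, 17.2 and 16.7 TPM in WT libraries. The groups did not overlap, but the lowest KO value was close to the highest WT value. Its log2 difference was 0.12 (SE 0.12; limma adjusted p = 0.732), beside 0.12 for the median of all genes, and -0.024 after median-of-ratios scaling. The antisense gene Gm16897, which overlaps Cd34, was at 0.58 TPM or less in every library.

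Cd82 encodes a tetraspanin, a membrane protein that organises integrins at the surface and that marks human and mouse satellite cells. The locus is on chromosome 2 at 93419111 to 93463140 (GRCm38, minus strand). Of its 4 RefSeq promoter windows, that nearest the annotated start of the gene is shown, because Cd82 had the smallest p of the 10 genes (GRCm38.p6, chr2:93462901-93463200, minus strand; the capitals mark 1 E-box).
Cd82 promoter: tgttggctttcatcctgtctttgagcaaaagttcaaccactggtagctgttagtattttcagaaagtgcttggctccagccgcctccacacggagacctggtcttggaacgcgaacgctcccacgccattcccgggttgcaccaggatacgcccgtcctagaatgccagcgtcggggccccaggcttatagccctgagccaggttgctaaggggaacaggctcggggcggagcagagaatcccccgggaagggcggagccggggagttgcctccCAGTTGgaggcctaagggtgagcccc
Cd82 held 87.1, 78.6 and 76.0 TPM in KO libraries, against 57.5, 65.5 and 47.0 TPM in WT libraries. Every KO library lay above every WT library. The mean was 80.6 ± 5.80 TPM in KO and 56.7 ± 9.30 TPM in WT (SD, n = 3 each), and the log2 difference was 0.51 (SE 0.16; limma adjusted p = 0.285). It was 0.36 after median-of-ratios scaling, and by exact permutation, two-sided, p was 0.1. The call depended on how protein-coding genes were picked when they alone were rescaled and tested. With genes matched by symbol alone, Cd82 passed, at 0.58 and a limma adjusted p = 0.0429, while with synonyms matched as well it did not, at an adjusted p = 0.0517.

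Cd82 has an intron with the microRNA hairpin Mir7001 on the same strand, at 93421929 to 93422007. Its mature sequences are shown with the seed in capitals (RefSeq, GRCm38.p6), because the hairpin differed in the same direction as its host.
mmu-miR-7001-5p: aGGCAGGGugugagcgugagcau
mmu-miR-7001-3p: cGCUCACAcucccucugcag
Mir7001 held 29.4, 39.0 and 63.4 TPM in KO libraries, against 14.5, 19.4 and 23.9 TPM in WT libraries, with no overlap. That is a log2 difference of 1.11 (SE 0.28; limma adjusted p = 0.218). Reads of the hairpin and of the unspliced Cd82 transcript cannot be told apart here, and Mir7001 was picked for its place in the gene after its values were seen. The lincRNA gene Gm10804, which overlaps Cd82 on the other strand, held 1.42, 3.96 and 3.18 TPM in KO libraries and 1.95, 2.13 and 2.02 TPM in WT libraries.

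Cd82 can be set against other tetraspanins. Cd9, which is active in myoblast fusion, held 30.5, 32.4 and 29.0 TPM in KO libraries and 30.6, 30.2 and 32.0 TPM in WT libraries, and the groups overlapped. The ratio of Cd82 to Cd9 was 2.86, 2.43 and 2.62 in KO libraries, against 1.88, 2.17 and 1.47 in WT libraries (exact permutation p = 0.1, adjusted 0.175). Of 22 further tetraspanins 11 were tested, 9 with a higher and 2 with a lower value in KO, beside 77.6% of all genes higher. After median-of-ratios scaling 7 of the 11 were higher, beside 52.3%. Their median was 0.26, or 0.12 after that scaling. Without overlap were 3, all with KO above (background 13.5%), or 1 after that scaling (background 6.58%). By limma 0 passed the adjusted threshold and 2 were higher at an unadjusted p under 0.05, beside 7.89% of all genes, or 0 after that scaling, beside 3.96%. Tspan12 held 3.80, 3.69 and 5.02 TPM in KO libraries, against 2.99, 2.16 and 2.97 TPM in WT libraries, and Tspan18 had a log2 difference of 0.37. Tspan3 and Cd81 had log2 differences of 0.26 each.

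**Figure D4:**
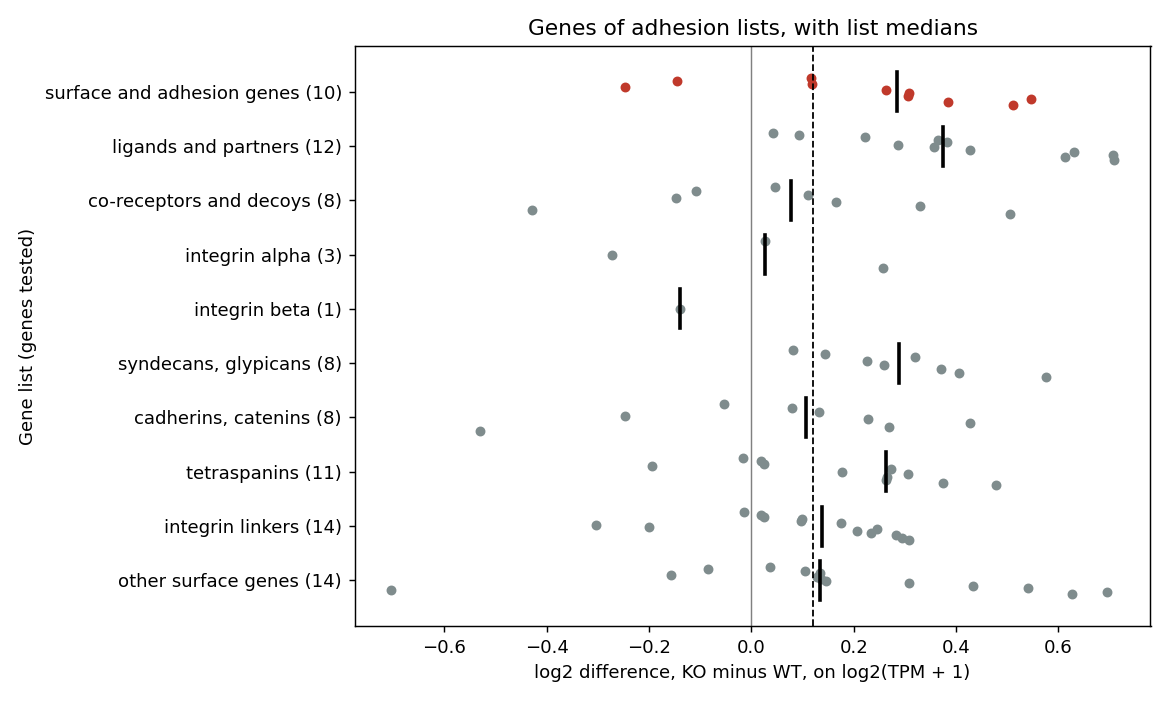
Log2 difference, KO minus WT, on log2(TPM + 1) for each tested gene of the surface gene set and of 9 related lists, with the number tested in brackets; black bars are list medians and the dashed line the median of all genes tested, 0.12. Of the 10 surface genes 6 lie right of the dashed line, with Cxcr4 and Sdc4 below 0, and the ligand list has the highest median, 0.37.

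Other surface genes of satellite cells gave differences in both directions. Of 18 listed and found, 14 were tested, 11 with a higher and 3 with a lower value, beside 77.6% of all genes higher. After median-of-ratios scaling 7 of the 14 were higher, beside 52.3%. Their median was 0.14, or -0.0032 after that scaling, and none passed the adjusted threshold (limma). At an unadjusted p under 0.05, 4 were higher and 1 lower, beside 7.89% and 2.66% of all genes. After that scaling 2 were higher and 1 lower at that p, beside 3.96% and 4.85%. Cd200, which encodes an immunoglobulin-family ligand, held 7.36, 9.46 and 6.35 TPM in KO libraries, against 12.6, 16.7 and 10.6 TPM in WT libraries. It was the surface gene with the lowest log2 difference in these lists, -0.70 (SE 0.20; limma adjusted p = 0.242), with no overlap. Cd44, the hyaluronan receptor gene, held 44.0, 29.6 and 26.02 TPM in KO libraries, against 23.9, 23.9 and 18.5 TPM in WT libraries. The dystroglycan gene Dag1 and the caveolin gene Cav1 had log2 differences of 0.70 and 0.63.

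The label of the cells was checked by markers. Pax7, the defining transcription factor of satellite cells, held 17.9, 32.8 and 29.5 TPM in KO libraries and 23.0, 25.4 and 23.3 TPM in WT libraries, and 12 of 12 satellite cell markers were tested. Ptprc was at 0.29 TPM or less, Itgam at 1 TPM or less and Pdgfra at 0.31 TPM or less in every library. Other genes of the fibro-adipogenic list were abundant, among them Gsn, at 63.9, 67.1 and 60.2 TPM in KO libraries against 70.9, 72.9 and 77.0 TPM in WT libraries, and Col3a1, at 48.4, 45.0 and 71.3 TPM in KO libraries against 40.9, 21.8 and 116.6 TPM in WT libraries. Dpt, which encodes the matrix protein dermatopontin, held 42.7, 50.9 and 39.1 TPM in KO libraries, against 31.1, 23.4 and 25.8 TPM in WT libraries, with no overlap (log2 difference 0.70; limma adjusted p = 0.185). Col1a2, a collagen I chain, held 1.65, 3.21 and 5.52 TPM in KO libraries, against 1.16, 0.70 and 1.90 TPM in WT libraries, and Dcn, the gene of decorin, between 7.32 and 13.03 TPM in KO libraries and between 8.26 and 13.44 TPM in WT libraries. The part of these genes' cells in the surface gene values was not tested. Ly6a held 0.37, 2.24 and 1.85 TPM in KO libraries and 0.35, 1.08 and 0.62 TPM in WT libraries. Pecam1 held 1.97, 5.07 and 4.56 TPM in KO libraries and 1.74, 3.40 and 3.18 TPM in WT libraries. No marker of the endothelial list was at 0 in all libraries, and 4 of its 10 genes passed the filter.

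**Figure D5:**
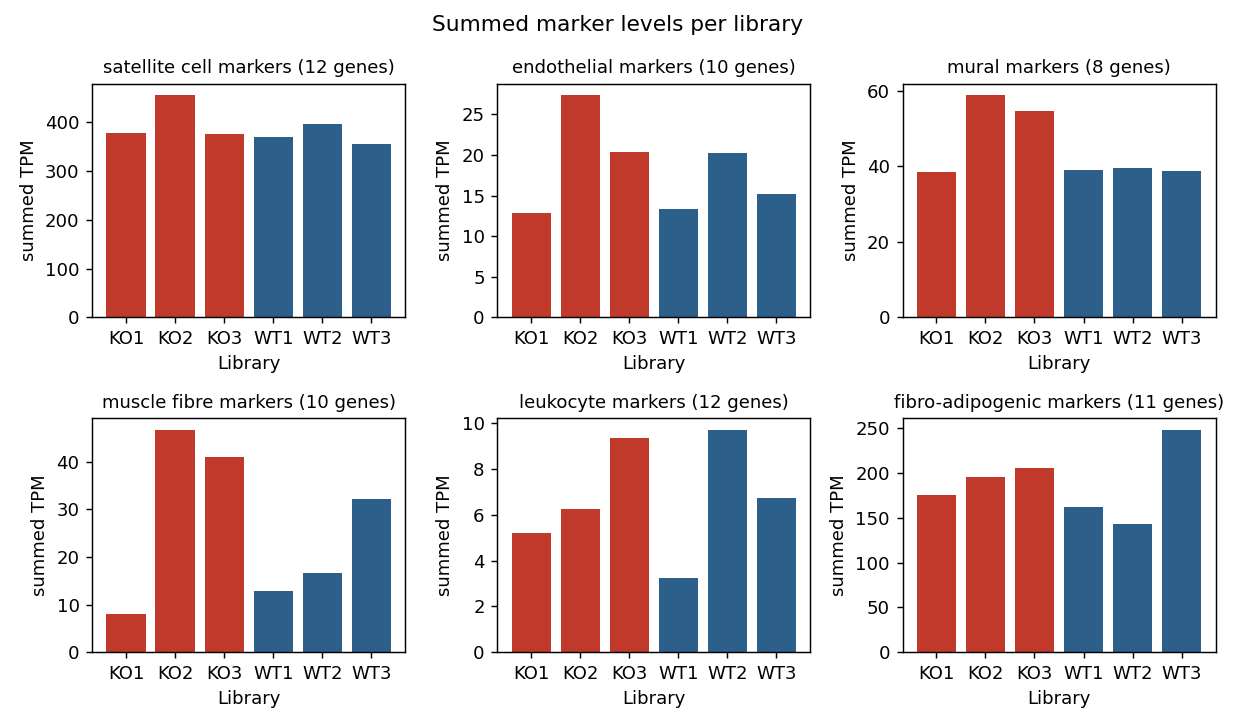
Summed TPM of marker lists in each library, KO left of WT; each panel has its own axis, from 0. Endothelial, mural and muscle fibre sums are high in KO libraries 2 and 3 and low in KO library 1.

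Markers of other cell types varied within the KO group. The 10 endothelial markers, whose cells also carry Cd34 and Vcam1, summed to 12.8, 27.4 and 20.4 TPM in KO libraries, against 13.3, 20.2 and 15.2 TPM in WT libraries. Tek was also listed among the other surface genes of satellite cells. It held 6.63, 8.17 and 6.26 TPM of this sum in KO libraries and 6.17, 8.32 and 6.04 TPM in WT libraries. The 8 mural markers summed to 38.5, 58.9 and 54.5 TPM in KO libraries, against 38.9, 39.6 and 38.7 TPM in WT libraries. Of this sum Notch3 held 19.9, 23.2 and 21.7 TPM in KO libraries and 18.3, 17.8 and 14.2 TPM in WT libraries. The 11 fibro-adipogenic markers summed to 175, 196 and 206 TPM in KO libraries, against 163, 144 and 249 TPM in WT libraries, and the 10 fibre markers to 7.97, 46.8 and 41.0 TPM in KO libraries, against 12.8, 16.6 and 32.1 TPM in WT libraries. Gsn, Col3a1 and Dpt, whose values are given above, made up most of the fibro-adipogenic sum, while Pdgfra was at 0.31 TPM or less. Such sums do not by themselves give the amount of other cells. The 12 leukocyte markers summed to between 5.22 and 9.36 TPM in KO libraries and between 3.24 and 9.72 TPM in WT libraries.

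KO library 1 had the lowest endothelial and fibre sums of all 6 libraries. It had 49.3 TPM of Vcam1, the lowest of the KO libraries, and 87.1 TPM of Cd82, the highest of them. Each of these values was above every WT library. Calcr, Cd34 and Vcam1, the last at 71.4 TPM, were highest in KO library 2, which also had the highest endothelial and mural sums. The part of endothelial, mural and fibre cells in these values was not tested. The 12 satellite cell markers summed to 379, 457 and 377 TPM in KO libraries and to 370, 396 and 356 TPM in WT libraries, so that KO library 2 was highest there too. Of these, Myf5 and Myod1, which encode myogenic factors, had log2 differences of 0.52 and -0.33, and both overlapped between the groups. Stress and early response genes, which handling of cells can raise, had a median log2 difference of -0.038 over 13 tested. The median of all genes was 0.12. In KO 6 had a higher value, beside 77.6% of all genes, and 7 a lower value. After median-of-ratios scaling 2 of the 13 had a higher value, beside 52.3% of all genes, with a median of -0.19. Atf3 alone did not overlap, with KO below WT as deposited and after that scaling (background 3.07% and 7.44%). None passed the adjusted threshold (limma). Cell cycle genes, which mark dividing cells, had a higher value in KO in 8 of 8 tested, beside 77.6% of all genes. Their median was 0.74. After median-of-ratios scaling 7 of the 8 were higher, beside 52.3%, with a median of 0.62. By limma 0 passed the adjusted threshold. At an unadjusted p under 0.05, 5 were higher, beside 7.89% of all genes, or 3 after that scaling, beside 3.96%. Birc5, Mcm3 and Mcm6 had log2 differences of 0.89, 0.68 and 0.60, and Pcna one of 0.13. Mki67 held 5.35, 1.59 and 15.3 TPM in KO libraries, against 0.91, 0.41 and 2.47 TPM in WT libraries. Of the KO libraries, library 2 had the lowest Mki67 and the highest Calcr, Vcam1, Cd34 and Sdc4, and the part of cell cycle genes in these values was not tested.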

How the data were processed

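The authors deposited TPM per gene symbol for 6 libraries; per the submitters' processing notes CASAVA, Trimmomatic 0.33, FastQC and kallisto were used with the builds GRCm38 and mm10, without roles or settings. The sources used here do not give the annotation, the strandedness or how transcripts were summed per gene. The listed TPM are 29.5% to 33.4% of the full scale, and depth is unknown.

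The values, as log2(TPM + 1), were compared by limma 3.58.1 (R 4.3.3; two-sided, eBayes with a trend, Benjamini-Hochberg adjustment over 8971 genes, threshold 0.05). A difference on this scale is smaller than the true one for low genes. The procedure was tested on simulated data. Ratios within libraries, chosen after the values were seen, were tested by exact two-sided permutation, adjusted over all 7 computed. Coordinates are those of GENCODE vM21 (GRCm38, 1-based), and sequences come from RefSeq (GRCm38.p6). The genes and lists were chosen with earlier results of these data known. Named were all 10 surface genes, the tested ligands and co-receptors, and defining lineage markers. Up to 4 genes of each other adhesion or surface list, those with the smallest p, were named too. The rule also covers the smallest-p genes of the marker, gating and stress lists, of which some alone are named. Cdh1, Cdh2, Cdh13, Cd9, Mki67, Pcna, Tln2, the overlapping genes and the low partner genes were picked with their values known. A further marker list is not reported here. Figures were drawn with matplotlib 3.10.9.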

Additional observations from a re-analysis of the deposited data

How the results depend on the processing

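Of 160 values of the 10 surface genes under 16 other settings, 154 kept their direction. No surface gene passed the adjusted threshold (limma) in the 15 planned settings. The other setting bears on that count. The planned test of protein-coding genes alone, rescaled, was first run with genes matched by symbol alone, and 1 surface gene, Cd82, then passed (adjusted p = 0.0429), among 155 of 8029 genes. Synonyms were added to the matching after that result had been seen, and with them 0 passed (Cd82 at an adjusted p = 0.0517; 5 at an unadjusted p under 0.05), among 87 of 8157 genes. Both versions are given, and neither was fixed in advance in this detail. Calcr turned to -0.015 and Cd34 to -0.024 with median-of-ratios scaling, and with quantiles equalised they were -0.035 and -0.051. Sdc4 was -0.40 with median-of-ratios scaling but -0.017 with quantiles equalised. With 1 library left out Calcr lay between -0.038 and 0.25 and Cxcr4 between -0.23 and 0.00090. The median log2 difference of the 10 genes, 0.29, was 0.18 with a pseudocount of 5, 0.14 with median-of-ratios scaling and 0.13 with equal quantiles. The median of all genes tested, 0.12, moved in these settings as well, to 0.058, 0.0088 and -0.0052 in the same order. The 6 genes with KO above WT without overlap became 3 under median-of-ratios scaling, while the share of all genes so placed went from 13.5% to 6.58%. The count stayed at 6 with protein-coding genes rescaled and without WT library 2, beside 26.7% and 36.8% of all genes. That count was added to the results after the data were seen. A ratio of Vcam1 to Sdc4 was at one stage left out of the family of ratios and it is counted here.

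The 5 genes called among all tested became 2 at a pseudocount of 0.1 and at a pseudocount of 5, 3 with either of these scalings, 87 or 155 with protein-coding genes and 80 with estimated library weights. It was 0 by limma with no filter (1198 higher and 374 lower at an unadjusted p under 0.05) and with a mean TPM of 1 or more (723 and 243). Leaving out 1 library gave 0 to 6 calls: 0 without KO library 3 (474 and 203), 3 without KO library 1 and 3 without WT library 1. The cause was not tested. No paired analysis was possible because the numbers in the titles differ between all 6 libraries. TPM holds no depth, so no counting error can be given for low genes such as Sdc3.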
